A study of Mus musculus with 5 samples.

Results

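Cadherins are calcium-dependent adhesion molecules of the cell surface, and 82 of the 14715 genes measured in mouse spiral ganglion neurons belonged to this family by symbol. All symbols that begin with Cdh or Pcdh and a digit, or with Pcdha, Pcdhb or Pcdhg, were taken. They comprised 17 classical and related cadherins (Cdh), 10 protocadherins outside the gene clusters (Pcdh), and 55 clustered protocadherins, namely 13 Pcdha, 21 Pcdhb and 21 Pcdhg genes. The rule used no measured value of these genes.

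Spiral ganglion neurons carry sound information from the cochlea to the brain. Type I neurons contact inner hair cells and are divided into subclasses Ia, Ib and Ic, and the less frequent type II neurons contact outer hair cells. The 3 CKO samples were bhlhb5-Cre/+; Ai14/+; Runx1F/F, in which Cre expressed from the bhlhb5 locus recombines floxed Runx1, and the 2 control samples were bhlhb5-Cre/+; Ai14/+ and so carried the same Cre and tdTomato reporter. Runx1 encodes a DNA-binding protein of the Runt family, and the question of the comparison is what these neurons express without it. All animals were 30 to 33 days old, of both sexes and untreated, and the cells came from dissociated cochleae by sorting for tdTomato, so only cells with a history of Cre activity were collected. The labels give no strain and do not say how many animals entered a sample.

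Single-cell RNA was captured with a 3′ assay that tags each molecule with a unique molecular identifier (UMI). A level below is the mean over cells of a gene's UMIs per 10000 UMIs counted in the cell. Each molecule is counted once at its 3′ end, so levels were not divided by gene length, and capture may differ between genes. The record of genotypes gave 884 CKO cells with 37482099 UMIs (median 44120.5 per cell) and 1070 control cells with 40734464 UMIs (median 38085 per cell), with 10379 to 100856 UMIs in a cell. It did not give the sample of a cell, so each genotype is 1 pool, no test between genotypes was made, and intervals are exact 95% intervals that cover counting error only. The columns fall into 5 stretches in which the barcodes restart their order, 3 of CKO cells (stretches 1, 3 and 4 with 355, 372 and 157 cells) and 2 of control cells (stretches 2 and 5 with 482 and 588 cells). The number of stretches equals the number of samples, but no source used here names the sample of a stretch, and stretch values are given to show spread and not as replicates. 1 barcode occurred in more than 1 stretch.

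Classes were set from 3 genes outside the family: type II at a Dupd1 level of 1 or more, then Ic at a Lypd1 level of 3 or more, then Ia at a Calb2 level of 150 or more, and Ib for the rest. These classes are ranges of marker levels. Class Ia held 384 CKO and 242 control cells, class Ib 216 and 395, class Ic 132 and 314, and class II 152 and 119. Of the cells divided by Calb2, 19.8% of CKO cells and 8.48% of control cells lay within 20% of the cut. Stretch 4 stood apart from the other CKO stretches in composition, with 12.1% of cells in class Ia against 47.0% and 53.2% in stretches 1 and 3. The control stretches also differed, with 10.8% in stretch 2 and 32.3% in stretch 5. Runx1 itself was counted at 2.005, 1.46 and 1.44 in the CKO stretches and at 1.34 and 1.14 in the control stretches. The labels do not say which exons are floxed, and a 3′ count outside the deleted part does not check the deletion. In class Ia the Runx1 level was 1.65 in CKO cells and 0.223 in control cells, so the cells that this range collects differed between genotypes also in Runx1.

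The markers of the named cell type were present. All 8 listed spiral ganglion neuron genes (among them the neurofilament genes Nefl and Nefm) were measured, with a summed level of 200.4 in CKO and 175 in control cells. Schwann and satellite glial genes summed to 34.4 in CKO and 37.9 in control cells (31.0 to 36.4 over the CKO stretches, 34.3 and 40.8 in the control stretches), of which S100b, which type I neurons held at 11.5 to 13.1 in every class of either genotype, made up 10.7 in CKO and 10.9 in control. Fibroblast genes summed to 0.901 in CKO and 0.899 in control, supporting cell genes to 0.415 in CKO and 0.397 in control, macrophage genes to 0.0123 in CKO and 0.00681 in control, and hair cell genes to 0.00462 in CKO and 0.00667 in control. Of 6 listed endothelial genes, 0 were among those measured.

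Classical cadherins bind the same cadherin on a neighbouring cell and link through catenins to the actin cytoskeleton. Their combinations are known to sort cells and to guide synaptic partners in many parts of the nervous system. Clustered protocadherins differ from these: neurons switch on a few members of the clusters by choosing among alternative promoters, and the resulting sets of proteins are known to serve self-recognition of neurites. Most protocadherins outside the clusters are delta-protocadherins, which adhere weakly and act in axon growth and circuit formation. Cdh23 and Pcdh15 form the tip links of hair cells.

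Among the members compared, Cdh22, Cdh9 and Pcdh20 had the largest log2 differences between control type I classes below. Bases before their starts are shown because Runx1 belongs to a family of factors that bind the letters TGTGGT and TGCGGT. These are from the RefSeq promoter table for build GRCm38.p6, are written 5′ to 3′ along the gene, and lie at chr2:165234854-165234987 on the minus strand for Cdh22, at chr15:16728665-16728755 on the plus strand for Cdh9, and at chr14:88471397-88471646 on the minus strand for Pcdh20. The table holds 250 bases before the RefSeq start, and bases inside the longer GENCODE gene model of Cdh22 and Cdh9 are left out. Capitals mark a match to either motif on either strand, and the 2 motifs cannot share a match.
Cdh22: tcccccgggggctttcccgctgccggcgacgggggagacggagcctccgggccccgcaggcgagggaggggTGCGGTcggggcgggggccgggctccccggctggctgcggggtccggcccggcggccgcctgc
Cdh9: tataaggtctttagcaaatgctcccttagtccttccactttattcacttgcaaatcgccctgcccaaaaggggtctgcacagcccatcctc
Pcdh20: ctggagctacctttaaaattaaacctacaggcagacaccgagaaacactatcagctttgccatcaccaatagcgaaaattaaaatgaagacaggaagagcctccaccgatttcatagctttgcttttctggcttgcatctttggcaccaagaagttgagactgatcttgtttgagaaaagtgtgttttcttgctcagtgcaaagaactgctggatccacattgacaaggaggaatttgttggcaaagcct
The Cdh22 window held 1 match, which begins 179 bases before the RefSeq start, and the whole 250-base windows of Cdh9 and Pcdh20 held none. The 250-base windows of Pcdh7, Pcdh9 and Pcdh17, which are not shown, held none either. The table held 22 windows of 19 members outside the clusters, and 5 of these windows (22.7%) held a match, against 18.6% of all 32851 windows in the table. A match is a description of the letters and not of binding. The table held no window for Cdh2 or Cdh4.

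Few members were abundant. The summed level of all 82 genes was 6.34 in CKO and 6.24 in control cells (log2 0.02), and 71 of the 82 genes lay below a level of 0.1. Only Cdh2, Pcdh7, Pcdh20, Cdh4, Cdh22 and Cdh9 reached 0.2 in either genotype, and Pcdh9 and Pcdh17 reached 0.2 within a class (Pcdh9 in Ib and Ic, Pcdh17 in II). These 8 genes are described first, by role. Levels of 45 members were higher and of 37 lower in the CKO pool.

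**Figure D1:**
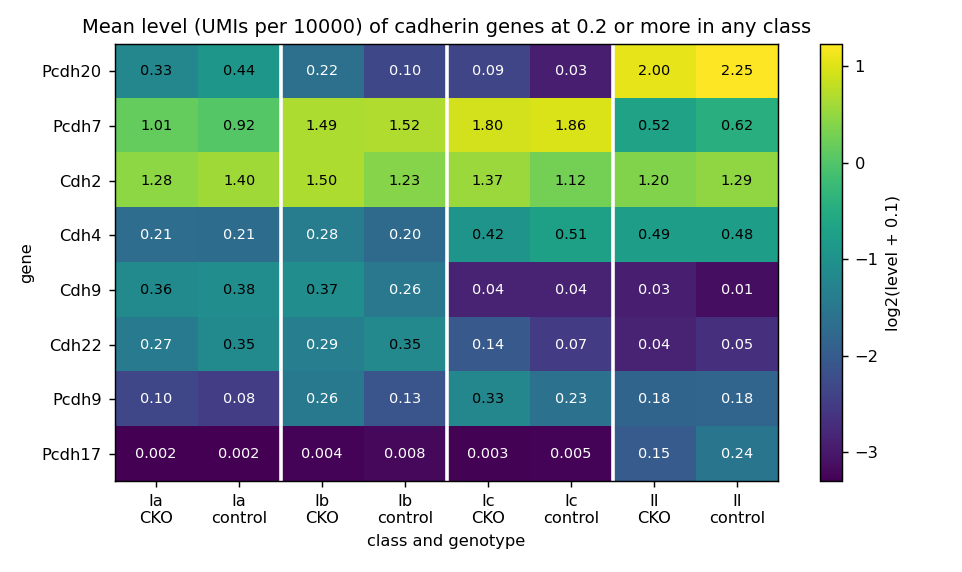
Mean level in UMIs per 10000 of the 8 cadherin genes that reach 0.2 in any class (rows), by class with CKO left of control in each pair (columns); colour is log2(level + 0.1). Pcdh20 and Pcdh17 are highest in class II, Cdh9 and Cdh22 in classes Ia and Ib, and Cdh2 differs little between columns.

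Of the classical cadherins, Cdh2 (N-cadherin, the main neuronal cadherin, on chromosome 18) was found in 96.9% of all cells and stood at similar levels in every class. Its level was 1.43, 1.19 and 1.45 in the CKO stretches and 1.14 and 1.32 in the control stretches, so the groups overlap. By class it ranged only between 1.197 and 1.498 in CKO and between 1.12 and 1.40 in control cells. The pooled log2 difference was 0.10.

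Cdh4 (R-cadherin, a close relative of N-cadherin, chromosome 2, 179442431 to 179899373) was highest outside classes Ia and Ib. It averaged 0.486 in CKO and 0.482 in control type II cells, and 0.418 and 0.507 in class Ic. Classes Ia and Ib held less, at 0.212 and 0.281 in CKO and at 0.209 and 0.2001 in control cells. The stretches of class Ic lay at 0.378, 0.501 and 0.410 in CKO and at 0.467 and 0.565 in control, and none of these 5 values fell as low as any class Ia value, which lay between 0.183 and 0.262.

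Cdh9 and Cdh22 are cadherins with more restricted expression; Cdh9 is known in mouse hippocampus and retina as a cadherin of particular synapses. Cdh9 (chromosome 15, 16728756 to 16857094) averaged 0.358 in CKO and 0.376 in control class Ia cells, and 0.374 and 0.256 in class Ib. In class Ic it was only 0.0386 in CKO and 0.0377 in control, and in type II cells it was 0.0316 and 0.0141. After thinning each cell to 10000 UMIs, 31.5% of CKO and 28.9% of control class Ia cells held a Cdh9 UMI, against 3.03% of CKO and 3.18% of control class Ic cells (unthinned 74.5% and 78.9% against 14.4% and 12.7%). In type II cells, which had the lowest Cdh9 level, the thinned share was 3.95% in CKO and 1.68% in control (8.55% and 4.20% unthinned), and free RNA was not measured. Median UMIs per cell were 50506 in CKO and 48726 in control class Ia, and 27102 and 25326 in type II. Every stretch of either genotype had more Cdh9 in classes Ia and Ib (0.195 to 0.487) than in class Ic (0.0225 to 0.0694).

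Cdh22 (chromosome 2, 165111507 to 165234853), whose promoter letters are given above, followed a similar order. Class Ia held 0.268 in CKO and 0.352 in control cells, class Ib 0.287 and 0.345, class Ic 0.144 and 0.0748, and type II 0.0373 and 0.0542. In class Ic the CKO stretch 3 held 0.324 over only 28 cells, and stretches 1 and 4 held 0.0794 and 0.108. The control stretches held 0.0374 and 0.128. The share of thinned class Ic cells with a UMI was 9.09% (4.79 to 15.3%) in CKO and 4.78% (2.70 to 7.76%) in control, against 1.97% and 3.36% in type II cells, and these intervals overlap.

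Among protocadherins outside the clusters, Pcdh7 (a delta-protocadherin known for axon growth, chromosome 5, 57717967 to 58133230) was found in 94.4% of cells and ordered the classes the other way round. Among type I classes its level was lowest in Ia (1.01 in CKO, 0.921 in control), higher in Ib (1.49 and 1.52) and highest in Ic (1.80 and 1.86). Type II cells held the least, 0.517 in CKO and 0.623 in control. Over all neurons the level was 1.16 in CKO and 1.38 in control, a log2 difference of -0.24, while the difference within a class lay between -0.23 (class II) and 0.12 (class Ia), and was 0.00 with the 3 type I classes weighted equally. The stretches with few class Ia cells, stretch 4 of CKO and stretch 2 of control, held 1.66 and 1.49, the highest of the 5.

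Pcdh20 (chromosome 14, 88464743 to 88471396) is a protocadherin used as a marker of type Ia neurons, and it marked type II cells more strongly. Type II cells held 1.995 in CKO and 2.25 in control, and class Ia 0.334 and 0.438. Class Ib held 0.224 in CKO and 0.101 in control, and class Ic 0.0947 and 0.0327. The 5 stretches of type II cells lay between 1.74 and 2.29, above every class Ia stretch (0.254 to 0.714). A UMI was present in 83.6% of CKO and 93.3% of control type II cells after thinning (98.7% and 100% unthinned), and in 28.9% and 36.0% of class Ia cells (73.2% and 76.0% unthinned).

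Pcdh17 (a delta-protocadherin, known in mouse basal ganglia for presynaptic assembly, chromosome 14, 84443563 to 84539002) was seen mostly in type II cells. It averaged 0.151 in CKO and 0.243 in control type II cells and at most 0.0081 in any type I class of either genotype. After thinning, 12.5% of CKO and 18.5% of control type II cells held a UMI (29.6% and 31.9% unthinned). In control class Ic 0 of 314 thinned cells did, which allows up to 0.955% of cells with a UMI at that depth, and 1.59% held one unthinned. The type II stretches held 0.206, 0.125 and 0.0902 in CKO and 0.303 and 0.151 in control and overlap.

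Pcdh9 (a delta-protocadherin on chromosome 14, 93013410 to 93890679) was highest in class Ic, at 0.332 in CKO and 0.230 in control, and lowest in class Ia, at 0.0977 and 0.0798. The stretches of class Ic held 0.395, 0.310 and 0.289 in CKO and 0.265 and 0.179 in control. The UMI rate in class Ic was 1.49 times that of control (1.23 to 1.81), and the log2 difference of mean levels, 0.39, did not reach the 1.5-fold threshold.

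**Figure D2:**
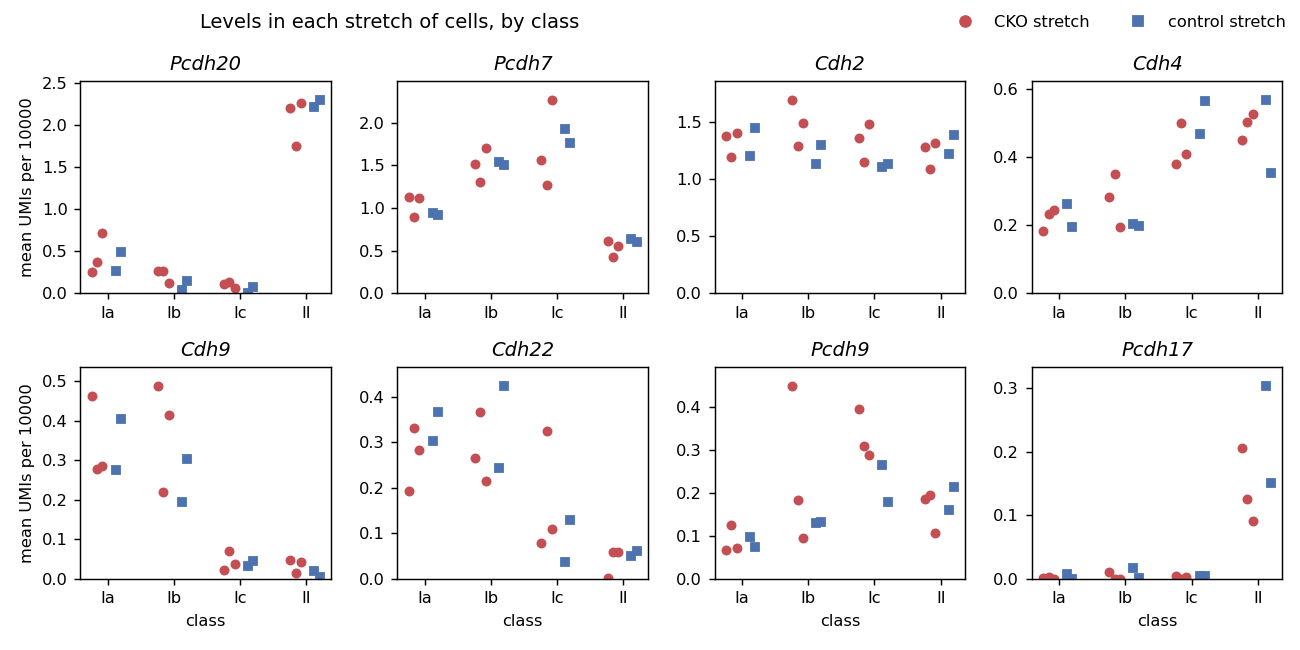
Mean level in UMIs per 10000 (vertical axis, linear from 0) of the same 8 genes by class (horizontal axis); each point is 1 stretch of cells, 3 CKO (circles, left) and 2 control (squares, right). Every type II point of Pcdh20 and Pcdh17 lies above, and every type II point of Pcdh7 below, all points of the other classes, and all Cdh9 points of classes Ia and Ib lie above those of class Ic and type II.

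Differences between classes were counted in control cells, where the level had to reach 0.2 in one of the groups and the fold of log2(level + 0.1) had to reach 2. Between type II and type I cells, 5 of 7 members that reached the level passed, against 20.5% of all 7317 genes. Pcdh20 and Pcdh17 were higher in type II, with log2 differences of 3.15 and 1.70, where 9.94% of all genes were higher. Pcdh7, Cdh22 and Cdh9 were lower, with -1.13, -1.21 and -1.46, where 10.6% of all genes were lower. Of these 5 only Pcdh7 reached 0.2 in both groups, and the others entered the count through the group where they were higher. In CKO cells the same differences were 2.55 and 1.29 for Pcdh20 and Pcdh17, and -1.18, -1.35 and -1.62 for Pcdh7, Cdh22 and Cdh9, so all 5 had the same sign and lay past 2-fold there. Type II cells also differed in glial RNA. Of 14 Schwann and satellite glial genes, Apoe, Fabp7 and Ednrb were higher in type II than in every type I class of both genotypes, and 7 were lower. Apoe held 6.41 in CKO and 12.3 in control type II cells, against at most 0.702 in any type I class, and Fabp7 held 1.91 and 2.20, against at most 0.0673. In the 91 CKO and 72 control type II cells with a summed glial level below 5, Pcdh20 held 2.11 and 2.24 and Pcdh17 0.153 and 0.267, close to the values over all type II cells. Pcdh7 held 0.520 and 0.524 there, Cdh22 0.0370 and 0.0757, and Cdh9 0.0319 and 0.0091, below the values over all type I cells. When type I and type II control cells poor in glial RNA were compared, with S100b left out of the sum, Cdh22 (-0.89) no longer passed. Cdh9 (-1.625), Pcdh7 (-1.49), Pcdh20 (3.35) and Pcdh17 (1.80) still did. Without stretch 5 the control count was 3, since Cdh9 (-0.96) and Cdh22 (-0.79) no longer passed.

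Between the highest and the lowest control type I class, 4 of 7 members passed 2-fold, against 3.19% of 6797 genes. They were Pcdh20 (log2 2.02, Ia over Ic), Cdh9 (1.79, Ia over Ic), Cdh22 (1.37, Ia over Ic) and Cdh4 (1.02, Ic over Ib). Only Cdh4 reached 0.2 in both of its classes, and the others entered the count through their higher class. The members' median was 1.02 and that of all genes 0.17. Class Ia over class Ic in CKO cells gave 1.16 for Pcdh20, 1.72 for Cdh9 and 0.60 for Cdh22, smaller than in control for Pcdh20 and Cdh22 and close to it for Cdh9. Whether these differences between genotypes exceed the spread between samples was not tested.

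Between genotypes the abundant members differed little. Over all neurons, 0 of the 6 members that reached 0.2 were 1.5-fold apart, against 0.898% of 6678 genes (60 genes). Their log2 differences lay between -0.24 (Pcdh7) and 0.41 (Pcdh20), with a median of 0.02, against -0.03 over all genes. With the 3 type I classes weighted equally, 0 of 7 passed, against 0.625% of genes. Cdh9 stood at 0.341, 0.199 and 0.209 in the CKO stretches and at 0.115 and 0.255 in the control stretches, and without stretch 5 its log2 difference was 0.73, which passes.

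Within classes, 0 of 6 members passed in class Ia (0.549% of genes), 0 of 4 in class Ic (1.34%) and 0 of 5 in class II (0.947%). In class Ib 2 of 7 passed, against 1.12% of genes. Both were higher in CKO, as were 0.765% of genes, with a log2 difference of 0.69 for Pcdh20 and of 0.64 for Pcdh9. For both genes the CKO and control stretches overlapped. Pcdh20 stood in class Ib at 0.260, 0.267 and 0.120 in the CKO stretches and at 0.0413 and 0.147 in the control stretches, and without stretch 2 its log2 difference was 0.39. Thinned class Ib cells held a Pcdh20 UMI in 17.6% (12.8 to 23.3%) of CKO and 7.34% (4.97 to 10.4%) of control cells (43.1% and 20.5% unthinned), against 11.4% and 3.503% in class Ic. The median log2 difference of the members at the level was 0.35 in class Ib, against -0.04 over all genes. It was -0.08 in class Ia, 0.11 in class Ic and -0.16 in class II, against -0.02, -0.03 and -0.03.

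The class Ib difference of Pcdh9 rested on 2 cells of CKO stretch 1. One, with 99938 UMIs, near the largest total of any cell, held 137 Pcdh9 UMIs, 48.1% of those in CKO class Ib, and a level of 13.7. The other held 31 Pcdh9 UMIs among 24493 and a level of 12.7. Without these cells the CKO level was 0.140, against 0.261 with them and 0.131 in control class Ib, and the log2 difference was 0.05. Whether these cells are doublets was not tested.

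Because Calb2 divides class Ia from Ib and more CKO cells lay near that cut, Pcdh20 was also read along the range of Calb2. The values are summed UMIs per 10000 in a range of Calb2 levels. At Calb2 levels of 100 to 150 the rate was 0.272 (0.222 to 0.331) in CKO and 0.155 (0.104 to 0.223) in control, and at 20 to 60 it was 0.126 (0.0843 to 0.181) in CKO and 0.0740 (0.0549 to 0.0976) in control. Below 20 it was 0.206 (0.0986 to 0.378) over 13 CKO cells and 0.236 (0.150 to 0.354) over 27 control cells. At 200 and above it was 0.336 (0.306 to 0.367) in CKO and 0.458 (0.416 to 0.504) in control. At 60 to 100 it was 0.146 (0.0977 to 0.209) in CKO and 0.0872 (0.0634 to 0.117) in control. At 150 to 200 it was 0.342 (0.291 to 0.399) in CKO and 0.391 (0.309 to 0.488) in control. The CKO pool thus held more Pcdh20 in each range from 20 to 150 and less from 150 up. The intervals overlap in every range below 200, and only those at 200 and above do not. Cdh9 gave 0.364 in CKO and 0.369 in control at 200 and above and differed by less than its counting interval there.

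**Figure D3:**
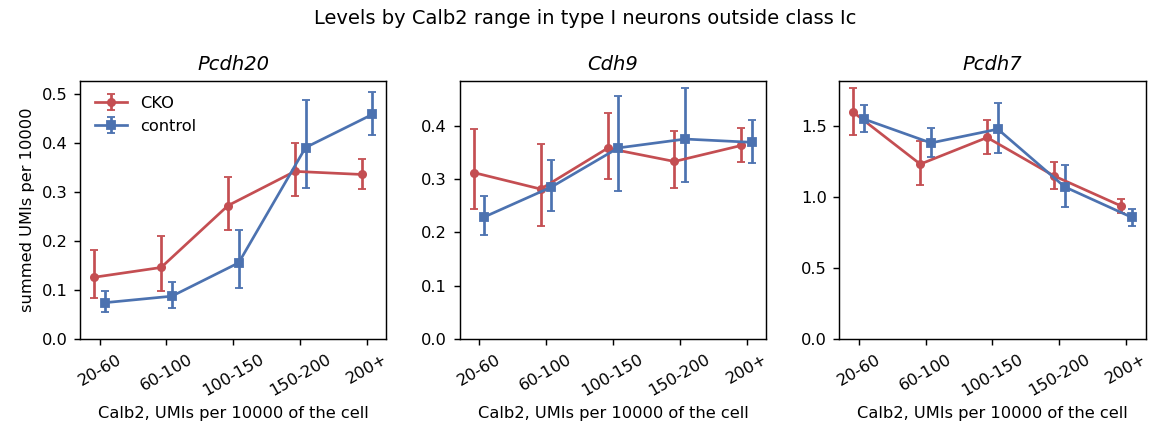
Summed UMIs per 10000 of Pcdh20, Cdh9 and Pcdh7 (vertical axes) by the Calb2 level of the cell (horizontal axis) in type I neurons outside class Ic; circles are CKO and squares control, and bars are exact 95% Poisson intervals for counting error only. Pcdh20 is 0.272 in CKO and 0.155 in control at Calb2 levels of 100 to 150, and 0.336 and 0.458 at 200 and above.

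Members below a level of 0.2 included several with class patterns of their own. Cdh1 (E-cadherin, the epithelial cadherin) averaged 0.146 in CKO and 0.153 in control type I cells, and was lowest in type II cells, at 0.0434 and 0.0563. Cells of both genotypes with a summed glial level below 5, mostly type II cells, held 1 Cdh1 UMI (level 0.0027). The other cells held 1077 (level 0.149), and whether Cdh1 RNA came from glia was not tested. Pcdh11x and Pcdh19, both X-linked delta-protocadherins, were highest in class Ic among type I neurons. Pcdh11x held 0.152 in CKO and 0.113 in control class Ic, against 0.0404 and 0.0795 in class Ia, and Pcdh19 held 0.105 and 0.0904 in class Ic, against 0.0214 and 0.0170. Cdh7 and Cdh8, cadherins known for wiring specificity in mouse and chick, were also seen mainly in class Ic, at 0.0305 in CKO and 0.0297 in control for Cdh7 and 0.0061 and 0.0219 for Cdh8. Cdh13 (T-cadherin, which is anchored by lipid) was seen almost only in type II cells, at 0.0313 in CKO and 0.0189 in control. Cdh8 rested on only 8 UMIs in CKO and 27 in control cells. Its control class Ic UMIs were 22 in stretch 2 and 3 in stretch 5. The CKO class Ic UMIs were 4 in stretch 4 and 0 in stretches 1 and 3, while stretch 1 held 3 in class Ib and 1 in class Ia.

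Of the tip link cadherins, Cdh23 was lower in the CKO pool, at 0.0119 against 0.0391 in control (UMI rate ratio 0.309, 0.213 to 0.440), and both lie below 0.2. By stretch it held 0.0030, 0.0049 and 0.0487 in CKO and 0.0631 and 0.0194 in control, so stretch 4 of CKO lies between the control stretches and the groups overlap. Within class Ib it held 0.0290 in CKO and 0.0674 in control. Pcdh15, its partner in the tip link, was at most 0.0146 in any class. In contrast to Cdh23 it was higher in the CKO pool, at 0.0054 against 0.0013 in control. This rests on only 24 and 5 UMIs (rate ratio 5.22, 1.95 to 17.5). By stretch Pcdh15 held 0.0061, 0.0065 and 0.0015 in CKO and 0.00132 and 0.00125 in control. Hair cell genes were close to 0, as given above, and in the list of tip link and transduction genes 0 of the 2 that reached 0.2, Cib2 (1.90 in CKO, 2.14 in control) and Lhfpl5 (0.347 and 0.342), were 1.5-fold apart. Cdh19, a cadherin of Schwann cells and their precursors, was at 0.0049 in CKO and 0.0036 in control.

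The clustered protocadherins lie on chromosome 18. Together they held 1.70 in CKO and 1.60 in control cells (log2 0.08; UMI rate ratio 1.03, 0.990 to 1.06), and 98.0% of cells held at least 1 UMI of a cluster. The Pcdhb genes gave most of this, 1.19 in CKO and 1.18 in control, followed by Pcdhg at 0.310 and 0.246 and Pcdha at 0.196 and 0.178. By class the clustered sum differed most in class Ib, at 1.99 in CKO and 1.58 in control (log2 0.31). The log2 difference was 0.02 in class Ia, 0.005 in class Ic and 0.13 in class II. In the annotation (GENCODE M21, build GRCm38) all 21 Pcdhg genes and all 12 placed Pcdha genes share their last exon with another member, since variable first exons are joined to common 3′ exons, whereas only 2 of 21 Pcdhb genes (Pcdhb21 and Pcdhb22) overlap another gene there. A 3′ read from a shared exon does not tell the members apart, so values of single Pcdha and Pcdhg genes are uncertain, and their sums may be too low.

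The most abundant Pcdhb genes were Pcdhb20 (0.111 in CKO, 0.129 in control), Pcdhb16 (0.128 and 0.112), Pcdhb14 (0.112 and 0.107), Pcdhb9 (0.110 and 0.0910) and Pcdhb21 (0.0939 and 0.102). At the other end, Pcdhb6 and Pcdhb8 stayed at or below 0.0044. Of the 21 Pcdhb genes, 10 were higher and 11 lower in CKO, and 0 reached 0.2. Stretch 4, a CKO stretch, held the largest Pcdhb sum (1.41) and stretch 3, another CKO stretch, the smallest (1.09), with the control stretches at 1.22 and 1.14 between them.

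The Pcdhg sum differed more between pools, with a UMI rate ratio of 1.24 (1.14 to 1.36). Its stretches held 0.385, 0.206 and 0.387 in CKO and 0.258 and 0.236 in control, so that 2 CKO stretches lay above and 1 below both control stretches. By class the Pcdhg sum was highest in type II cells, at 0.492 in CKO and 0.399 in control, and lowest in class Ia, at 0.225 and 0.208. The Pcdhb sum was lowest in type II cells, with 0.964 against 1.13 to 1.45 in the type I classes of CKO and 0.899 against 1.14 to 1.29 in those of control.

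**Figure D4:**
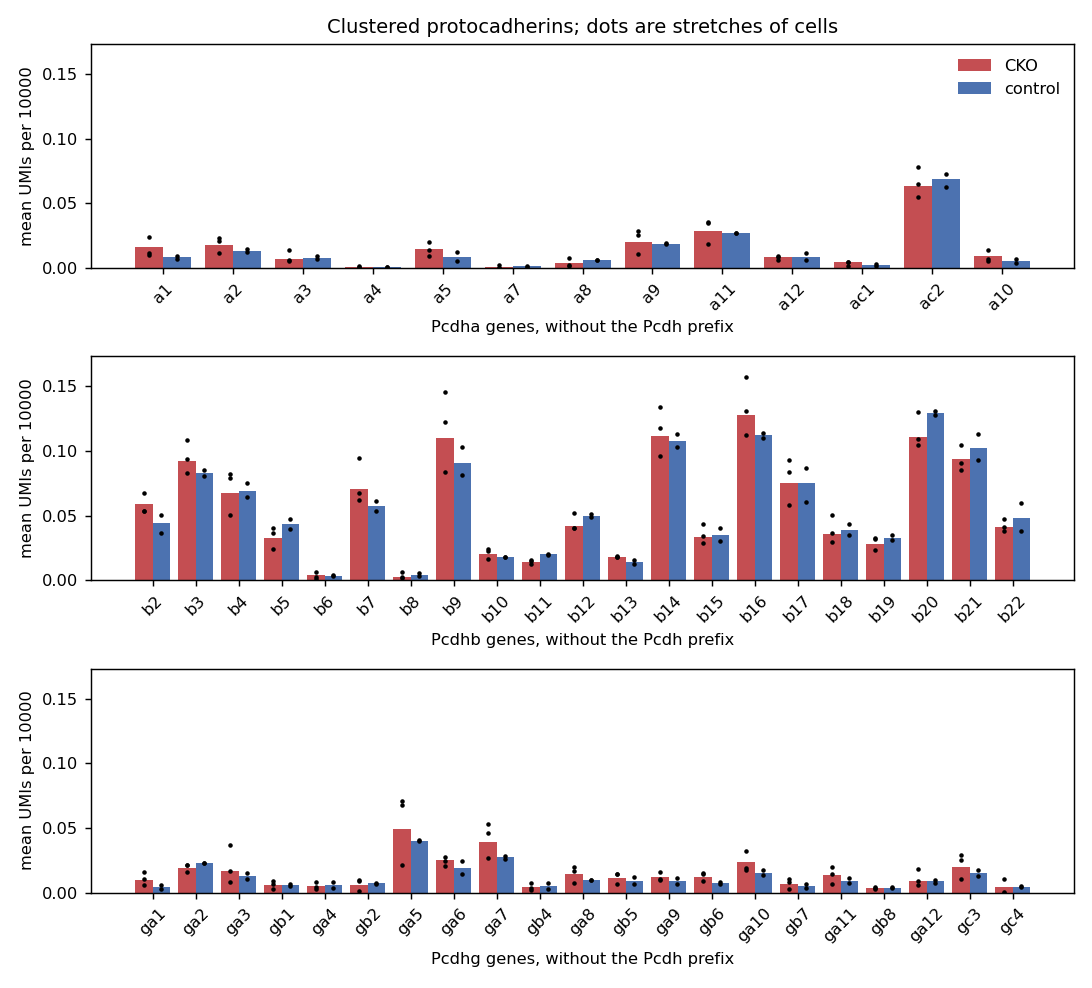
Mean level in UMIs per 10000 (vertical axes, linear from 0, shared) of each clustered protocadherin in the order of the genes along the chromosome, with the unplaced Pcdha10 last; bars are the CKO pool (left) and the control pool (right), and dots the stretches of cells. The Pcdhb genes hold the tallest bars, up to 0.128 in CKO and 0.129 in control.

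Most neurons held UMIs of some clustered genes, and the number seen was lower when fewer UMIs were counted. The median number of clustered genes with a UMI was 5 in CKO and 4 in control cells, with up to 15 and 13. After thinning to 10000 UMIs, cells held 1.56 ± 1.27 genes in CKO and 1.48 ± 1.19 in control (SD over cells), and 22.2% and 22.1% held none. By class the thinned mean was 1.38 in CKO and 1.49 in control class Ia, 1.76 and 1.504 in class Ib, 1.75 and 1.53 in class Ic, and 1.55 and 1.202 in type II.

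Pcdhb transcripts were spread over cells less evenly than counting alone gives. The variance of UMI counts within genotype, class and stretch was divided by that of Poisson counting at each cell's depth. Over the 3977 genes with 100 to 1000 UMIs this ratio had a median of 1.07, with 95% of genes at or below 1.42. The 19 Pcdhb genes of that range had a median of 1.47 and lay between 1.18 and 2.18, against 1.198 for 11 members outside the clusters in the same range. Members with more than 1000 UMIs were left out of this comparison. Of these, Pcdh9 (3.106), Pcdh20 (2.073), Cdh1 (1.611), Cdh22 (1.603) and Pcdh7 (1.524) lay above the Pcdhb median. Cdh4 (1.343), Cdh9 (1.251) and Cdh2 (1.239) lay below that median. Ratios of this size were thus not limited to Pcdhb genes. Pcdhb7 was seen in 14.8% of cells, where Poisson counting gives 21.9%, Pcdhb9 in 21.03% against 31.4%, and Pcdhb14 in 25.3% against 34.2%. Pcdhb14 reached 15 UMIs in 1 cell.

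Among the other clusters the 4 Pcdha genes of that range lay between 0.996 and 1.35 and the 7 Pcdhg genes between 0.991 and 1.39. Pcdhac2, one of the C-type genes, which are known to be expressed without the random choice made among the alternate members, was seen in 22.9% of cells against 23.2% under Poisson counting (ratio 1.05), and Pcdhgc3 in 6.19% against 6.07% (ratio 0.991). Of the alternate genes, Pcdha2 (ratio 0.996), Pcdhga3 (1.08) and Pcdhga6 (1.101) were as low or nearly so, and Pcdha11 (1.33), Pcdhga7 (1.39) and Pcdhga5 (1.33) were higher, and the limit on single Pcdha and Pcdhg genes given above applies to all of these. Cdh18, outside the clusters, was seen in 28.4% of cells against 28.9% (ratio 1.01).

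**Figure D5:**
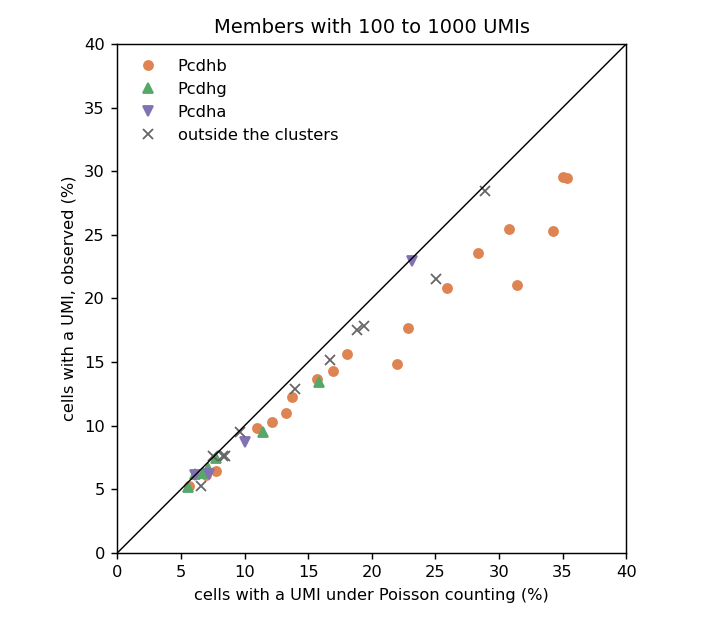
Share of all cells with a UMI (vertical axis, percent) against the share that Poisson counting at each cell's depth gives (horizontal axis, percent) for members with 100 to 1000 UMIs; the line marks equality. Pcdhb genes (circles) lie furthest below the line, as for Pcdhb9 at 21.03% observed and 31.4% under Poisson counting.

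Genes that work with cadherins were also read as lists. Over all neurons 0 of 5 catenin and armadillo genes at a level of 0.2 or more, 0 of 6 other genes of the cadherin superfamily, 0 of 4 nectin and Cadm genes, 0 of 10 regulators of the protocadherin clusters, 0 of 9 signalling partners and 0 of 6 processing genes were 1.5-fold apart, against the 0.898% of all genes given above. Ctnnb1 (beta-catenin, which joins cadherins to the cytoskeleton) held 1.25 in CKO and 1.33 in control. Among cluster regulators, Ctcf, the insulator protein that loops chosen protocadherin promoters to their enhancers, held 0.936 and 1.01.

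Cadm1, which encodes an adhesion molecule of the immunoglobulin type, held 1.45, 1.73 and 1.78 in the CKO stretches and 2.17 and 2.24 in the control stretches. Its log2 difference was -0.42. Celsr2, an atypical cadherin of planar polarity, held 0.548, 0.639 and 0.724 in the CKO stretches and 0.850 and 0.798 in the control stretches. The log2 difference of Celsr2 was -0.36. Cyfip2, of the actin-regulating complex that protocadherins recruit, held 2.45, 3.30 and 3.09 in CKO and 3.61 and 3.39 in control, with a log2 difference of -0.25. None of these reached 1.5-fold. These genes were named because their log2 differences were among the largest of their lists, and all were lower in CKO. Other listed genes were higher in CKO. Pkp4 had the largest difference of the catenin and armadillo genes at the level, with a log2 of 0.31. It held 0.628, 0.817 and 0.619 in the CKO stretches and 0.648 and 0.469 in the control stretches, which overlap. Cadm4 had a log2 difference of 0.16, and its stretches overlap too. The share of all genes whose stretches separate by genotype was not counted. In the marker lists for the classes, read over all neurons, 2 of 4 Ia genes were at least 1.5-fold higher in CKO. Of 2 Ib genes at the level, 1 was higher and 1 lower. Lower genes were 1 of 3 Ic genes and 1 of 4 type II genes at the level. Of all genes, 0.898% were 1.5-fold apart. Class Ia held 43.4% of CKO and 22.6% of control cells. Within class Ia, the 2 Ia genes Calb2 and B3gat1 held 237 and 2.11 in CKO and 245 and 2.02 in control. Within class Ib, the higher Ib gene Calb1 held 2.56 in CKO and 1.31 in control. These lists hold 2 of the genes that set the classes, Calb2 and Lypd1, and 1 member, Pcdh20.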

How the data were processed

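Cells were captured with 10x Genomics 3′ chemistry, per the labels' protocols. Per the submitters' processing notes, Cell Ranger, Seurat and the mouse build mm10 were used, without versions. The deposited matrix holds natural log values, ln(1 + 100000 × UMIs / cell total), a unit settled from the values: the authors' values gave whole UMIs for 100% of entries within 0.01, and each cell summed to 100000. How the authors filtered cells or treated doublets is not given in the sources used here, and no doublets were removed here. The members, classes and gene lists were chosen with earlier results of these data known.

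Levels are UMIs per 10000 averaged over cells, and log2 differences are log2((CKO + 0.1)/(control + 0.1)). A gene counts as apart at 1.5-fold between genotypes, or 2-fold between classes, where its level reached 0.2 in either group. Members at 0.2 in any genotype or class were named, with up to 4 genes of each of 18 lists. UMI rate ratios are ratios of summed UMIs over summed depth. Exact Poisson intervals were used for UMIs and Clopper-Pearson intervals for shares, all at 95%, and for a share of 0 the share that 3 cells would give. Shares were compared after thinning each cell to 10000 UMIs. The plan assumed 3 CKO and 2 control samples, but cells carry no sample, so no test was made. The counting of genes past the fold was tested on simulated data, and the outcome is not given here. Alternatives were other pseudocounts, filters and class cuts, pooled rates, thinning, cells poor in glial RNA and leaving out each stretch. Python 3.11.15 was used with numpy 2.4.6, pandas 2.3.3, scipy 1.17.1 and matplotlib 3.10.9.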

Additional observations from a re-analysis of the deposited data

How the results depend on the processing

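Each alternative changed 1 choice. No paired analysis was possible because the cells carry no sample. Over 123 alternatives of the 7 single-gene differences past the fold, all 123 had the same sign and 106 were still past it. Part of these could not change a value. The level filters leave the log2 value of a gene as it is. Leaving out CKO cells or rescaling the pools leaves differences between control classes as they are. A pseudocount of 0.02 gave 1 member apart between genotypes in class II (main 0). A pseudocount of 0.5 gave 0 in class Ib (main 2), 1 between control type II and type I (main 5) and 0 between control type I classes (main 4). A level filter of 0.5 gave 0, 2 and 1 in these 3 comparisons. Pooled UMI rates, stretches weighted equally, and Calb2 cuts of 100 or 200 each gave 1 in class Ib. Thinning gave 3 between type II and type I and a median log2 of 0.18 for the abundant members (main 0.02). The clustered sum (main log2 0.08) gave 0.25 in cells poor in glial RNA, which were mostly type II cells because type I neurons hold S100b. Of alternatives chosen after seeing the data, leaving S100b out of that list gave 0.18 for the clustered sum, and leaving out the 2 cells with most Pcdh9 UMIs gave 1 in class Ib. Class comparisons with under 20 cells in a group were not run in cells poor in glial RNA. The cause of these changes was not tested.

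Leaving out each stretch in turn gave 0 to 1 members over all neurons, 0 to 1 with type I classes weighted equally, 1 to 3 in class Ib, 0 to 1 in class Ic, 0 to 1 in class II, 3 to 5 between type II and type I and 3 to 4 between type I classes. The median log2 ranged over 0.014 to 0.29 (0.20 without stretch 3, 0.29 without stretch 5) and the clustered sum over 0.016 to 0.22 (0.22 without stretch 3). Cdh9 passed over all neurons without stretch 5, Pcdh9 in class Ic (log2 0.63) without stretch 2, and Pcdh17 in class II without stretch 1 (-0.66) or stretch 5 (-0.68). In class Ib, Pcdh9 did not pass without stretch 1 (0.09) or Pcdh20 without stretch 2 (0.39), and Cdh9 passed without stretch 3 (0.64) or stretch 5 (0.68). Members below 0.2 rest on few UMIs, so that depth limits any comparison of single clustered genes between genotypes.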

Other observations

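Ush1c, which encodes the scaffold protein harmonin of the tip link complex and was chosen after its values were seen, differed widely between stretches. The CKO stretches, numbered 1, 3 and 4, held 0.0051, 0 and 0.882 of it. The control stretches, numbered 2 and 5, held 0.126 and 0.0028. Cdh23, which harmonin binds, was also higher in stretches 4 and 2 than in the others, at 0.0487 in CKO stretch 4 and 0.0631 in control stretch 2.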
